A study of Homo sapiens with 6 samples.

Results

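10 genes of the Hippo pathway and of the YAP target programme were examined in Huh7 cells that overexpressed the circular RNA hsa_circ_0098181. They were chosen by name: the kinases STK3, LATS1 and LATS2, the coactivators YAP1 and WWTR1, the DNA-binding partners TEAD1 and TEAD4, and the target genes CTGF, CYR61 and ANKRD1. All 10 were found among the 50868 genes of the table, with CTGF and CYR61 under these older symbols (now CCN2 and CCN1). Huh7 is a hepatoma line of long standing. The overexpression group held 3 libraries of cells given a plasmid for hsa_circ_0098181 and the control group 3 libraries of cells given the control plasmid. Both groups received a lipid transfection reagent and were harvested after 48 h. hsa_circ_0098181 is formed from exons of SOX5. The labels do not say whether the 3 libraries of a group came from separate cultures, so p-values measure only the spread between these libraries. The study asked how the circle changes the growth, invasion and survival of hepatoma cells.

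The Hippo pathway is a kinase cascade that restrains tissue growth. STK3 (also called MST2) activates LATS1 and LATS2, and the LATS kinases phosphorylate the coactivators YAP (YAP1) and TAZ (WWTR1), which then stay in the cytoplasm or are degraded. When the cascade is off, YAP and TAZ enter the nucleus, bind TEAD factors and switch on genes such as CTGF, CYR61 and ANKRD1. In liver the pathway is known for setting organ size, and active YAP is known to drive hepatocyte growth. Since YAP activity is set largely by phosphorylation, transcript levels of the pathway genes and those of its targets are different readouts.

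Promoter sequences of the target genes CTGF and ANKRD1 are shown first, because they carry the short TEAD recognition sequence. The letters searched were GGAATG on either strand, written in capitals below, in windows from 250 bases before to 50 after each transcription start listed by RefSeq (GRCh38.p14). 6 of the 10 genes had a start in the reference set used, with 8 windows in all. CYR61, TEAD1, TEAD4 and STK3 were missing from that set, so their promoters were not read. CTGF on the minus strand of chromosome 6 (chr6:131951323-131951622) and ANKRD1 on the minus strand of chromosome 10 (chr10:90921038-90921337) read as follows, 5′ to 3′.
CTGF: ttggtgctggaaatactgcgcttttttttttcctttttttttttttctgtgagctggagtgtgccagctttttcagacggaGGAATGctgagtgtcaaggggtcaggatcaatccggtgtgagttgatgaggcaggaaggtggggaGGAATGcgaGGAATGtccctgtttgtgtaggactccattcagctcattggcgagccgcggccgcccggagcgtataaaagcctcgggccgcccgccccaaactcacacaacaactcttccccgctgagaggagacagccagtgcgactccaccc
ANKRD1: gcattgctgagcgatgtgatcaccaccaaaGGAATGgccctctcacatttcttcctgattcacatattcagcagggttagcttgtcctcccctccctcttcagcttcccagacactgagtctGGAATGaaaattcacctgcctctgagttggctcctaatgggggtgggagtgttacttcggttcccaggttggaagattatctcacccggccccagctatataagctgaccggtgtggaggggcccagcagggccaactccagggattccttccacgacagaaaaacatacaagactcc

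The CTGF window held 3 matches, beginning 169, 104 and 95 bases before the start. The ANKRD1 window held 2 matches, beginning 220 and 128 bases before the start. YAP1 had 1 match, 162 bases before its start, LATS2 had 1 match, 9 bases after it, and the windows of WWTR1 and LATS1 had none. A match was thus present in 4 of 8 windows (50%) of these genes, against 14.03% of all 35116 windows of the same length. A match of 6 letters is a description of the sequence and does not show that a TEAD factor was bound there. No binding was measured in these libraries.

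The study examined miR-18a-3p as a partner of the circle, so the genes were also searched for its site. The mature miRNA is shown with its seed, bases 2 to 8, in capitals.
hsa-miR-18a-3p: aCUGCCCUaagugcuccuucugg

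The complement of the seed, AGGGCAG, occurred in the 3′ UTR of 1 of the 10 genes, LATS1, when the longest coding transcript of each gene in GENCODE 29 was read. Among 12512 tested genes with such a UTR, 19.01% held a match. The LATS1 match lies at 149659420 to 149659426 on the minus strand of chromosome 6 (GRCh38), in transcript ENST00000543571.5, and is shown in capitals with its flanks.
LATS1: cccaggctggAGGGCAGtggcgcttca

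Library totals were 11130902 to 14138262 counts, and mitochondrial genes held 6.32% to 7.04% of the counts in 5 libraries and 9.29% in control replicate 1. As a check of the labels, SOX5 was measured at 1905, 2396 and 2012 CPM (counts scaled to the library total with TMM factors) with overexpression and at 41.8, 34.4 and 31.3 CPM in the controls, a log2 fold change of 5.88 (SE, the standard error, 0.16, edgeR adjusted p 2.6e-06). All 9 hepatoma markers, among them ALB, AFP and APOB, were above 1 CPM, and their summed level was 30314 to 33250 CPM with overexpression and 29495 to 35426 CPM in the controls. Endothelial CDH5, VWF and KDR were at or near 0 counts, while PECAM1 was at 46.9 to 59.1 CPM in every library. Of the leukocyte markers, CD68 was at 6.64 to 12.8 CPM, CD14 at 1.21 to 3.47, PTPRC at 0.766 to 1.86 and CD3E at 0 to 0.143. The 5 fibroblast or stellate genes summed to 19.96 to 22 CPM with overexpression and 19.9 to 23.1 in the controls, and the 4 endothelial genes to 54.4 to 55.6 and 46.9 to 59.2. None of these markers passed the test (edgeR adjusted p under 0.05).

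None of the 10 genes passed an adjusted p of 0.05 in the edgeR quasi-likelihood fit, adjusted by Benjamini-Hochberg over 15055 genes, where 0.0399% of all genes did (0.0266% higher and 0.0133% lower with overexpression). DESeq2 and limma on log2(FPKM + 1) likewise called 0 of the 10. At an unadjusted p under 0.05 there was 1 of 10, ANKRD1, against 5.5% of all genes, and there was none with upper-quartile factors or with the filter at a mean of 50 counts. The 3 overexpression values and the 3 control values did not overlap for 1 of 10, WWTR1, against 12.9% of all genes (6.4% higher and 6.5% lower with overexpression). Fitted log2 fold changes (overexpression minus control) were negative for 8 and positive for 2 of the genes, with a median of -0.11, where 49.5% of all genes were negative and the median of all genes was 0.0023. Without control replicate 3 the split was 5 and 5 and the median -0.0035. That library was the highest for 5 of the 10 and was singled out after its values were seen. For a gene highest in that control, leaving the library out raises the log2 fold change almost by construction, here and below. In bulk RNA, a lower level per cell and fewer cells that express a gene cannot be told apart.

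**Figure D1:**
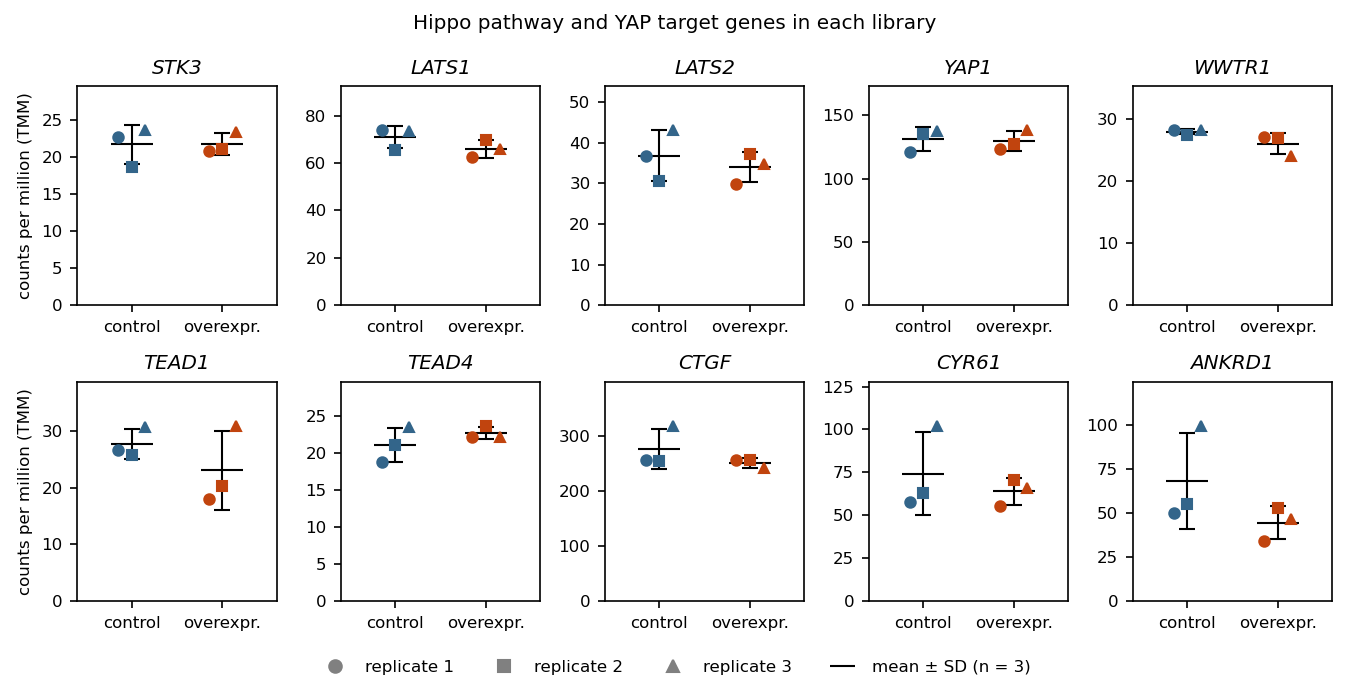
CPM (vertical axes, from 0) of each of the 10 genes in the 3 control and 3 overexpression libraries, with symbols for the replicate number and black bars for the mean ± SD (n = 3). The groups overlap for every gene except WWTR1, and control replicate 3 (triangle) is the highest library for CTGF, CYR61 and ANKRD1, at 320, 102 and 99.6 CPM.

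Levels of different genes were compared only per length, as CPM per kilobase of merged GENCODE 29 exons. CTGF was the highest of the 10 at 113 ± 11.8 (SD, n = 6 libraries), above 98.1% of tested genes. ANKRD1 at 28.4 ± 11.3 and CYR61 at 28.1 ± 6.98 followed, and their ranges over the libraries overlapped. YAP1 was next at 20.7 ± 1.22, a range that did not overlap with that of CYR61 above or TEAD4 below. TEAD4 at 9.64 ± 0.79, LATS1 at 7.92 ± 0.55 and LATS2 at 6.35 ± 0.88 formed a middle tier in which each range overlapped with the next. WWTR1 at 3.21 ± 0.18, TEAD1 at 2.47 ± 0.52 and STK3 at 1.73 ± 0.15 were lowest, again with neighbouring ranges that overlapped. By their means the 3 target genes were the highest of the set on this scale, but the lowest ANKRD1 library, at 17.2, lay under the YAP1 range of 19.2 to 22 (both in CPM per kilobase). Merged exons include all annotated isoforms, which makes the values of genes with long alternative exons, such as STK3 with 12597 bases, lower by an amount that was not measured. STK3 was also the only one of the 10 whose gene coordinates differed from GENCODE 29. Its counts and its length may therefore rest on different gene models.

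**Figure D2:**
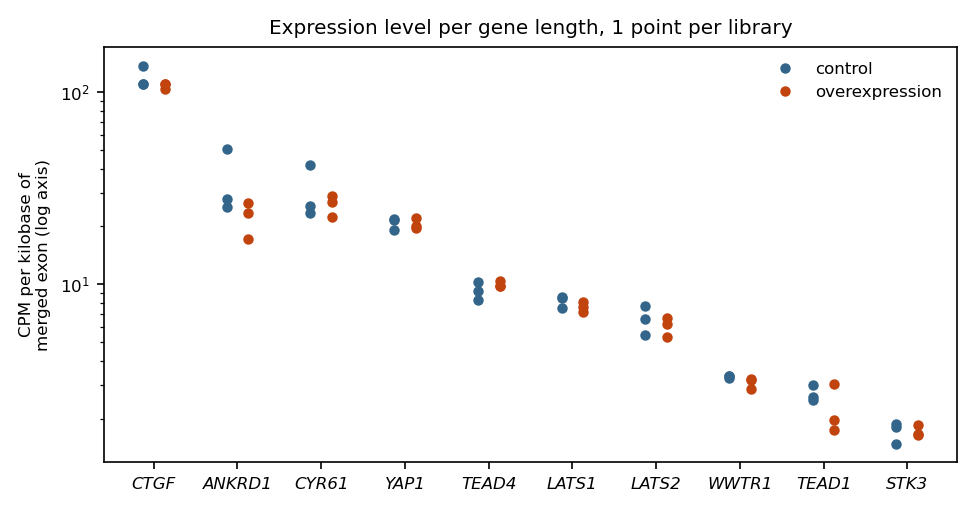
Level of each gene per kilobase of merged exon (log axis), 1 point per library, control in blue and overexpression in red, ordered by the mean over 6 libraries from CTGF at 113 to STK3 at 1.73. The widest scatter is that of ANKRD1, where the highest library is 2.92 times the lowest, followed by CYR61 with 1.85 and TEAD1 with 1.73.

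Among the kinases, STK3 (ENSG00000104375, chromosome 8 at 98401403 to 98942827, minus strand) was 20.8, 21.1 and 23.4 CPM with overexpression and 22.8, 18.7 and 23.7 CPM in the controls. All 3 overexpression values lay inside the control range, and the log2 fold change was 0.0026 (SE 0.13, edgeR adjusted p 0.998, 95% interval -0.29 to 0.30). On the linear scale the interval runs from 0.818 to 1.23 of the control level. STK4 (MST1), the second kinase at this step, had 90.5, 29.3 and 95.3 CPM against 33.5, 30.3 and 99.5 CPM. Its libraries lay near 30 or above 90 CPM in both groups, so its log2 fold change of 0.39 (SE 0.53, edgeR adjusted p 0.883) came with a wide interval of -0.83 to 1.62 and ran from 0.10 to 1.17 when a library was left out. With STK4 so variable, the share of STK3 in the summed STK3 and STK4 level per length ran from 14.2% to 34.2%.

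LATS1 (ENSG00000131023, chromosome 6 at 149658153 to 149718256, minus strand) phosphorylates YAP and TAZ directly. It was 62.4, 69.6 and 65.8 CPM with overexpression and 74.0, 65.4 and 73.6 CPM in the controls. The values overlapped through control replicate 2, and the log2 fold change was -0.11 (SE 0.095, edgeR adjusted p 0.832, 95% interval -0.33 to 0.11). The value ran from -0.16 without control replicate 2 to -0.068 without overexpression replicate 1, and was -0.046 with the length trend removed. No difference was thus detectable in the gene that holds the miR-18a-3p match shown above.

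LATS2 (ENSG00000150457, chromosome 13 at 20973032 to 21061547, minus strand) is both a kinase of the cascade and a known YAP target. It was 29.9, 37.3 and 34.9 CPM with overexpression against 36.6, 30.6 and 43.2 CPM, with the highest value in control replicate 3. Its log2 fold change was -0.11 (SE 0.15, edgeR adjusted p 0.877), and 0.019 without control replicate 3. LATS1 made up 52.4% to 58.0% of the summed LATS level per length over the 6 libraries, with means of 55.7 ± 1.52% and 55.6 ± 2.93% (SD, n = 3 each), so the balance of the pair differed by less than its spread.

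YAP1 (ENSG00000137693, chromosome 11 at 102110461 to 102233423, plus strand), the main coactivator of the pathway, was 123, 127 and 138 CPM with overexpression. The controls were 121, 136 and 138 CPM. The groups covered almost the same range, the log2 fold change was -0.019 (SE 0.093), and the edgeR adjusted p was 0.973. The 95% interval ran from -0.23 to 0.19, that is from 0.851 to 1.14 of the control level. The fitted direction turned with small changes of the setting, to 0.0057 under limma on log2(FPKM + 1) and 0.017 without control replicate 3.

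WWTR1 (ENSG00000018408, chromosome 3 at 149517235 to 149736714, minus strand) encodes TAZ, the partner coactivator. It was 27.0, 26.9 and 24.1 CPM with overexpression and 28.2, 27.4 and 28.2 CPM in the controls. All 3 overexpression values lay under all 3 control values, by a narrow margin of 27.0 against 27.4 CPM. The log2 fold change was -0.10 (SE 0.10, edgeR adjusted p 0.842), and exact permutation of the log2(CPM + 0.5) values, two-sided, gave p = 0.1, the smallest that 3 against 3 libraries allow. The 6 fits that left out a library gave -0.13 to -0.051 (without overexpression replicate 3), and removal of the length trend gave -0.045. With the groups apart, that permutation p and the direction in those 6 fits largely follow, so they restate the lack of overlap. Per length, YAP1 was 5.72 to 7.69 times the level of WWTR1, and it made up 85.1% to 88.5% of their sum in all 6 libraries.

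TEAD1 (ENSG00000187079, chromosome 11 at 12674591 to 12944483, plus strand), a DNA-binding partner of YAP, was 18.0, 20.3 and 31 CPM with overexpression and 26.7, 25.8 and 30.9 CPM in the controls. Overexpression replicate 3 matched the highest control while the other two were the lowest values of all. The log2 fold change was -0.27 (SE 0.20, edgeR adjusted p 0.805), and single libraries moved it between -0.54 without overexpression replicate 3 and -0.12 without overexpression replicate 1. The difference did not exceed the spread between replicates.

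TEAD4 (ENSG00000197905, chromosome 12 at 2959330 to 3040673, plus strand) was 22.2, 23.7 and 22.2 CPM with overexpression and 18.8, 21.0 and 23.5 CPM in the controls. It was the only gene besides STK3 with a positive log2 fold change, 0.10 (SE 0.12, edgeR adjusted p 0.862), and the groups overlapped. The value was 0.030 without control replicate 1, 0.19 without control replicate 3 and 0.036 with the length trend removed. Over the whole TEAD family, TEAD4, TEAD2 at 9.32 ± 1.2 and TEAD3 at 8.82 ± 1.70 CPM per kilobase (SD, n = 6) had overlapping ranges, while TEAD1 at 1.75 to 3.02 lay under all of them. TEAD1 made up 7.41 ± 2.55% of the summed TEAD level with overexpression and 9.10 ± 1.37% in the controls (SD, n = 3 each), shares that overlapped. The share of TEAD2 was 24.8% to 30.2% with overexpression and 32.7% to 34.5% in the controls, without overlap, and this was singled out after its values were seen.

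The targets are the readout of YAP and TAZ activity. CTGF (ENSG00000118523, chromosome 6 at 131948176 to 131951373, minus strand) encodes a secreted matrix-associated growth factor. It was 257, 257 and 242 CPM with overexpression and 256, 256 and 320 CPM in the controls. 2 controls were level with 2 overexpression libraries, and control replicate 3 stood above them. The log2 fold change was -0.14 (SE 0.11, edgeR adjusted p 0.807, 95% interval -0.38 to 0.11), and -0.024 without control replicate 3.

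CYR61 (ENSG00000142871, chromosome 1 at 85580761 to 85583962, plus strand), a related secreted protein, was 55.2, 70.6 and 65.8 CPM with overexpression against 57.9, 62.8 and 102 CPM. Again control replicate 3 was the highest library, 1.69 times the mean of the other controls. The log2 fold change was -0.22 (SE 0.21, edgeR adjusted p 0.838). Its direction turned to 0.083 without that library.

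ANKRD1 (ENSG00000148677, chromosome 10 at 90912096 to 90921276, minus strand), an ankyrin repeat protein of the nucleus and the muscle sarcomere, had the most negative value of the 10. It was 34.1, 52.6 and 46.5 CPM with overexpression and 49.7, 55.0 and 99.6 CPM in the controls, means of 44.4 ± 9.41 and 68.1 ± 27.4 CPM (SD, n = 3 each). Overexpression replicate 2 lay above control replicate 1, so the groups overlapped, and control replicate 3 was 1.90 times the mean of the other controls. The log2 fold change was -0.62 (SE 0.27, 0.651 of the control level, 95% interval 0.424 to 0.999), with an unadjusted p of 0.0498 and an adjusted p of 0.797 in edgeR. An exact two-sided permutation test gave p = 0.2. Without control replicate 3 the log2 fold change was -0.24 (edgeR adjusted p 0.727), and the 6 fits without a library gave -0.80 to -0.24 (adjusted p 0.672 to 0.979).

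**Figure D3:**
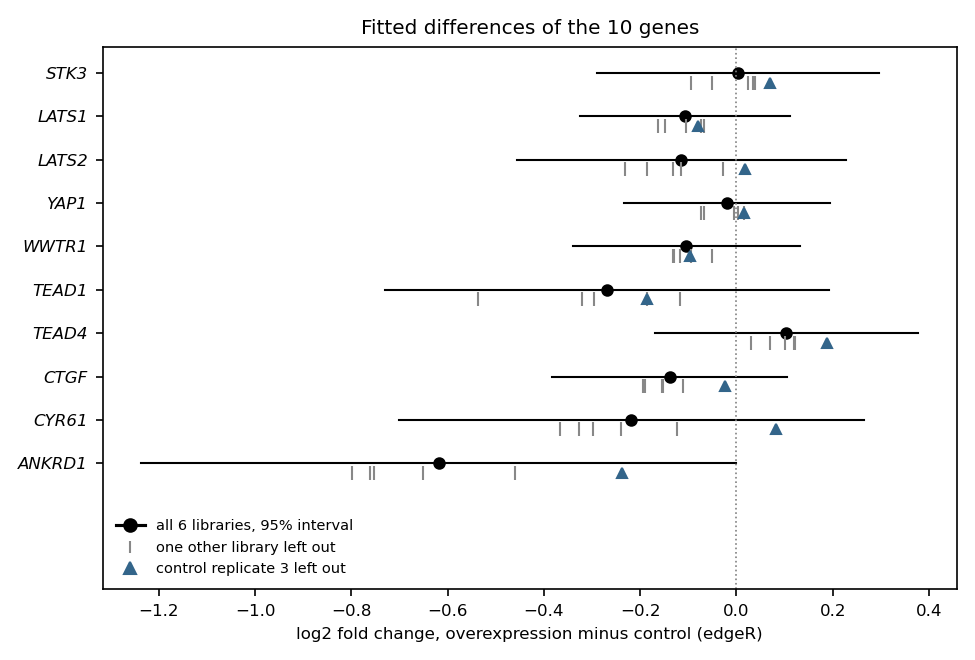
Log2 fold changes (horizontal axis, overexpression minus control) of the 10 genes with their 95% intervals (black), and the values when a library is left out (grey ticks, and a blue triangle for control replicate 3). Every interval except that of ANKRD1, which ends at -0.00079, includes 0, and leaving out control replicate 3 moves ANKRD1 from -0.62 to -0.24 and CYR61 from -0.22 to 0.083.

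The genes differed in how tightly the libraries of a group lay together. The within-group SD on the log2 scale was 0.068 for WWTR1, 0.090 for LATS1 and 0.095 for YAP1, which put these genes at percentiles 5.95, 13.1 and 15 of all tested genes. It was 0.34 for CYR61 and 0.44 for ANKRD1, at percentiles 82.9 and 91.6. TEAD1, with 0.30, was at percentile 77.8. CTGF was tighter than the other targets, with 0.13. Over all 6 libraries YAP1 spanned 1.15-fold from lowest to highest and ANKRD1 2.92-fold. The precision of the comparison was best for the coactivators and LATS1, and poorest for ANKRD1, CYR61 and TEAD1.

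A set of 22 widely used YAP and TAZ target genes, which includes LATS2, CTGF, CYR61 and ANKRD1, was read in the same fit. 19 were tested, since AXL had 0 counts in every library, a count that allows at most 3 per library, and FOXF2 and RBMS3 were under the filter. No gene passed an adjusted p of 0.05 by edgeR, DESeq2 or limma, and 4 of 19 (MYOF, PTPN14, FJX1 and ANKRD1) had an unadjusted p under 0.05 in edgeR, all with lower values with overexpression, where 3.08% of all genes did. Log2 fold changes were negative for 17 of 19, with a median of -0.18. Groups were apart for 3 of 19 (MYOF, PTPN14 and FJX1), with lower values in overexpression, against 6.5% of all genes. Of the 15 tested genes that are not among the 10, 13 were negative and the median was also -0.18. With each library's trend with gene length removed, 17 of 19 were still negative and the median was -0.21. In that fit 3 had an unadjusted p under 0.05 (edgeR), all lower, as did 414 of 14979 genes with lower values. The median of the 15 was then -0.17. That of CTGF, CYR61 and ANKRD1 went from -0.22 to -0.28.

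The libraries did not share evenly in these negative target values. Control replicate 3 was the highest library for 14 of the 19 targets, and for 10 of the 15 outside the 10 genes, where 16.5% of all genes had their highest value there. The median deviation from each gene's mean over the libraries was 0.29 on the log2 scale in control replicate 3, 0.060 and -0.035 in control replicates 1 and 2, and -0.19, -0.018 and -0.074 in overexpression replicates 1 to 3. Without control replicate 3, 13 of 20 tested targets were negative and the median was -0.13. In that fit 0 of 20 had an unadjusted p under 0.05 (edgeR), against 1052 of all 15055 genes. In so short a list, a count of 0 is near that share. In that library the total of 12211132 counts and the mitochondrial share of 6.94% lay within the range of the other libraries. Since this library was singled out for its high target values, a rise of the log2 fold changes without it largely follows from that choice. The part that this library plays in the negative values beyond these figures was not tested.

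**Figure D4:**
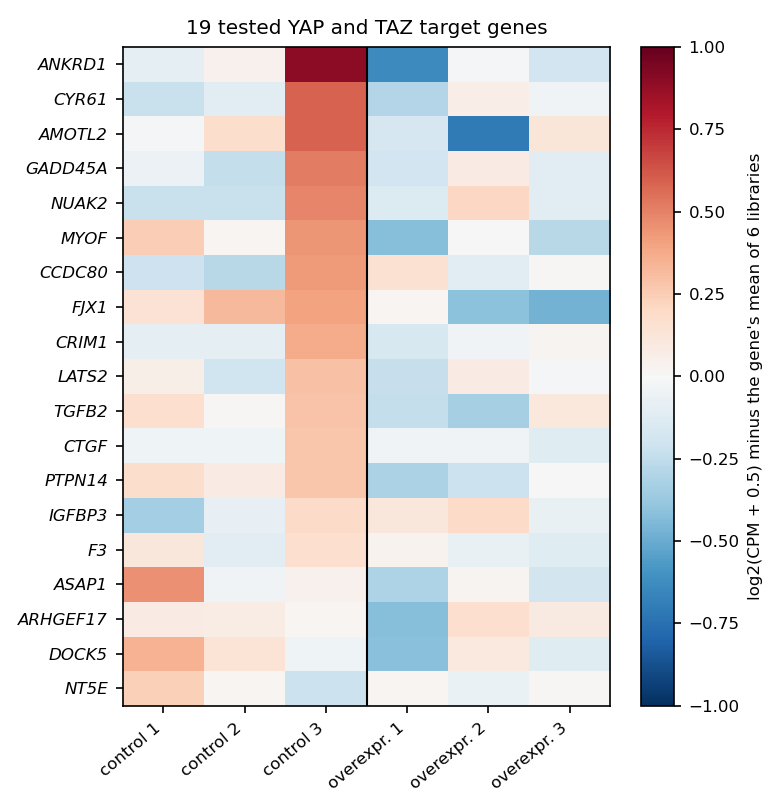
Log2(CPM + 0.5) of the 19 tested YAP and TAZ targets minus each gene's mean of the 6 libraries (colour, red above and blue below), with genes ordered by their value in control replicate 3. That column is the highest of the row for 14 genes, while control replicate 2 and overexpression replicates 1 and 3 are the highest for none of the 19.

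The targets with the most negative values besides ANKRD1 were FJX1, AMOTL2 and MYOF. FJX1, the counterpart of the fly gene four-jointed, was 1.91, 1.28 and 1.21 CPM with overexpression and 2.12, 2.47 and 2.63 CPM in the controls, a log2 fold change of -0.71 (SE 0.28) at a level of few counts (edgeR unadjusted p 0.0324, adjusted p 0.797). MYOF, a membrane repair protein, was 20.8, 28.0 and 23.1 CPM against 33.3, 28.5 and 38.3 CPM, a log2 fold change of -0.48 (SE 0.15, edgeR unadjusted p 0.0139, adjusted p 0.797). The groups of both genes were apart, and without control replicate 3 their log2 fold changes were -0.64 and -0.37. AMOTL2, a scaffold that binds YAP, was 69.1, 47.5 and 84.6 CPM against 77.3, 87.8 and 118 CPM, which overlapped (log2 fold change -0.49, SE 0.22, edgeR adjusted p 0.797). Its value was -0.30 both without control replicate 3 and without overexpression replicate 2. The only positive values in the set were those of IGFBP3, which binds insulin-like growth factors, at 0.15 (SE 0.17, and 0.027 without control replicate 1), and CCDC80, a matrix protein near 1 CPM, at 0.0010 (SE 0.38).

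Of 47 further genes of the pathway, 43 were tested, and MAP4K1, AMOT, VGLL1 and VGLL2 were under the filter. The genes cover adaptors, upstream kinases, scaffolds, cadherins, LIM proteins and TEAD and VGLL factors, and include AMOTL2 and PTPN14 of the target set. None passed an adjusted p of 0.05 by edgeR, DESeq2 or limma, and 6 of 43 had an unadjusted p under 0.05 in edgeR, 1 higher (RASSF1) and 5 lower (NF2, WWC2, MAP4K5, PTPN14 and STRN), against 2.42% and 3.08% of all genes. MAP4K5, PTPN14 and STRN are named here after their values were seen. 26 values were negative and 17 positive, with a median of -0.079. After each library's trend with gene length was removed the median was -0.010, with 24 negative and 19 positive. In that fit 3 of 43 had an unadjusted p under 0.05 (edgeR), against 743 of 14979 genes. That trend was largest in control replicate 1 and overexpression replicate 1, where genes longer than 7100 bases had median deviations of 0.10 and -0.096 on the log2 scale. Control replicate 1 was also the highest library for 16 of the 43 genes, against 26.6% of all genes.

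The pathway genes with the most positive values were STK4, described above, then WTIP, RASSF1 and TEAD3. RASSF1, a scaffold that binds the MST kinases, was 41.4, 37.7 and 37.4 CPM with overexpression and 29.3, 32.1 and 31.4 CPM in the controls. These groups were apart, with a log2 fold change of 0.33 (SE 0.10, edgeR unadjusted p 0.0108, adjusted p 0.797), and the value stayed between 0.28 and 0.35 whichever library was left out. WTIP, a LIM protein near 3 CPM, had a log2 fold change of 0.36 (SE 0.26, edgeR adjusted p 0.798), and 0.13 without overexpression replicate 2. TEAD3 had one of 0.28 (SE 0.18, edgeR adjusted p 0.797), which ranged from 0.15 (control replicate 3 left out) to 0.53 (control replicate 2 left out).

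The most negative values were those of NF2, AMOTL2, AJUBA and WWC2. NF2, which encodes merlin, a membrane-linked activator of the cascade, was 32.6, 32.5 and 37.1 CPM with overexpression against 54.4, 55.1 and 34.8 CPM. Here control replicate 3 was the one control at the level of the overexpression libraries, so the log2 fold change of -0.50 (SE 0.18, edgeR unadjusted p 0.0221, adjusted p 0.797) became -0.68 without it (adjusted p 0.321). WWC2, a relative of the adaptor KIBRA, was 26.7, 32.2 and 33.7 CPM against 36.9, 35.7 and 49.0 CPM, groups that were apart (log2 fold change -0.40, SE 0.15, edgeR adjusted p 0.797, and -0.23 without control replicate 3). AJUBA, a LIM protein that binds LATS kinases, was 49.9, 107 and 113 CPM against 101, 136 and 132 CPM, with a log2 fold change of -0.45 (SE 0.28, edgeR adjusted p 0.797). Without overexpression replicate 1 it was -0.16.

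CTGF and CYR61 also respond to serum and stress, so 18 immediate early genes were set beside them. 16 were tested, 0 passed an adjusted p of 0.05 by edgeR, DESeq2 or limma, and 2 had an unadjusted p under 0.05 in edgeR, 1 in each direction. Of all genes, 2.42% were higher and 3.08% lower at that unadjusted p. 9 values were positive and 7 negative, with a median of 0.024, which turned to -0.040 with the length trend removed (6 positive, 10 negative). EGR1, an early growth response factor, was 16.1, 16.0 and 13.8 CPM with overexpression and 24.4, 19.1 and 17.8 CPM in the controls (log2 fold change -0.41, SE 0.15, edgeR adjusted p 0.797). BTG2, an antiproliferative gene, was 24.6, 25.3 and 26.4 CPM against 20.2, 22.8 and 19.8 CPM (0.28, SE 0.11, edgeR adjusted p 0.797). The groups of both were apart, as were those of 6.4% of all genes with higher and 6.5% with lower values in overexpression. EGR1 was at -0.26 on the log2 scale without control replicate 1.

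Control replicate 3 was the highest library for 6 of the 16 immediate early genes, against 16.5% of all genes. DUSP1, a MAP kinase phosphatase, stood at 59.6 CPM there and at 39.3 to 42.6 CPM in the other libraries, and FOS at 10.9 CPM there and 6.0 to 10.6 CPM elsewhere. The median deviation of the list in that library was 0.074 on the log2 scale, against 0.59 for CTGF, CYR61 and ANKRD1. The remaining named genes of the list had log2 fold changes of 0.69 for IER2, 0.38 for IER5, 0.18 for FOS, -0.24 for DUSP1, -0.16 for KLF6 and -0.12 for ZFP36, none past the test. Without control replicate 3, those of DUSP1 and KLF6 were -0.053 and -0.076, and those of IER5 and FOS 0.58 and 0.51. IER2, like STK4, jumped between libraries of a group, at 47.7, 43.7 and 15.7 CPM against 43.5, 11.6 and 11.9 CPM.

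**Figure D5:**
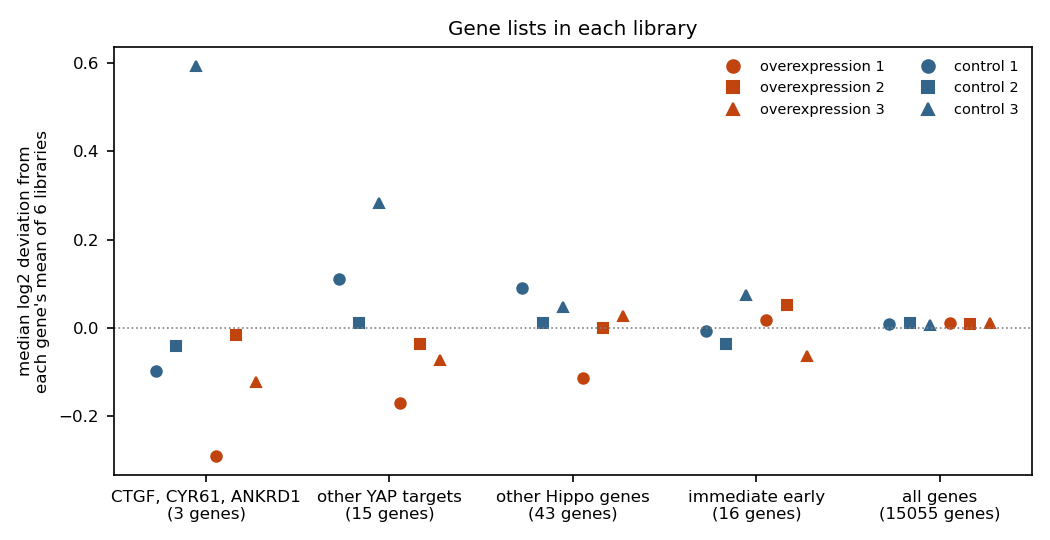
Median over each gene list (vertical axis, log2 deviation from each gene's mean of the 6 libraries) in each library, with colours for the group and symbols for the replicate. Control replicate 3 stands at 0.59 for CTGF, CYR61 and ANKRD1 and at 0.28 for the 15 other tested YAP targets. Over all genes the libraries lie between 0.0062 and 0.010. The scaling of the libraries and the centring of each gene place that median near 0, so it is no measure of spread for a short list.

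Counts of the 10 genes could in part belong to overlapping or near-identical genes, since strand handling is not stated. The overlapping genes held few counts: over the 6 libraries, WWTR1-AS1 had 12 against 2028 for WWTR1, the antisense gene at CTGF had 10 against 19890, and that at LATS1 had 11 against 5135. YAP1P1, a processed pseudogene of YAP1, had 1 count against 9811. STK3 transcripts share stretches of 31 bases with many genes, and WWTR1 transcripts share 106 such stretches with THRAP3. Overlapping stretches are each counted, so the 106 can lie in a single shared run. The counts of STK3 and WWTR1 may therefore be the least certain of the set, but misplaced reads were not measured.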

How the data were processed

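RNA sequencing of total RNA was analysed for 6 libraries, grouped and numbered by their titles. The authors deposited 1 table with whole-number read counts per gene, not normalized, and FPKM values scaled by gene length and library total. The submitters' processing notes name TopHat2 2.0.9 and the build hg38. The counting tool, its use of strand and the annotation release are not given in the sources used here. Of the gene IDs, 98.5% were in GENCODE 29 (GRCh38), 94.9% of them with identical coordinates.

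Counts were fitted with edgeR 4.0.16 (R 4.3.3): filterByExpr at a minimum count of 10, TMM factors, glmQLFit and a two-sided glmQLFTest with group as the single term. Adjusted p-values are Benjamini-Hochberg values over the whole set of 15055 genes. The biological coefficient of variation was 16.1%. Standard errors and 95% intervals came from the F statistics. Counts at 0 are bounded by 3 counts, which covers counting error only. Single genes also had exact permutation tests.

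Alternatives were RLE and upper-quartile factors, DESeq2 1.42.0 without shrinkage, a filter that removed only genes without counts, one at 50 counts on average, limma 3.58.1 on log2(FPKM + 1) for genes that reached 1 FPKM in 3 or more libraries, a replicate block, removal of each library's trend with gene length by splines (5 degrees of freedom), and leaving out each library. On simulated counts, the edgeR fit called 66% of 100 genes changed 2-fold and 94% of 100 changed 4-fold at the same threshold. It also called 19 of 14855 unchanged genes. Smaller changes were not simulated. No list was given a test of its own.

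The 10 genes and the lists were chosen with earlier results of these data known. Named were the 10 genes, SOX5 and, from each of the 3 other lists, any gene past the threshold and up to 4 genes with the most positive and 4 with the most negative log2 fold change at a mean of at least 1 CPM. A further leukocyte marker is not reported here.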

Additional observations from a re-analysis of the deposited data

How the results depend on the processing

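No member, further pathway gene, YAP target or immediate early gene passed the threshold under any alternative, and among 313 values under alternatives other than leaving out a library, 308 kept direction and side of the threshold or moved by less than the spread. The exceptions were YAP1 at 0.0057 under limma on log2(FPKM + 1), CCDC80 at -0.0014 with RLE factors, the median of the further pathway genes at -0.010 and that of the immediate early genes at -0.040 with the length trend removed, and the calls over all genes, 28 under DESeq2 (8 higher, 20 lower) against 6. The cause was not tested.

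When one library was left out, log2 fold changes ran from -0.074 to 0.017 for YAP1, -0.23 to 0.019 for LATS2, -0.095 to 0.071 for STK3, -0.37 to 0.083 for CYR61 and -0.19 to 0.41 for CCDC80, and these turned in some fits. LATS2 and CYR61 turned only without control replicate 3. The median of the 10 genes ran from -0.18 to -0.0035, the latter without control replicate 3. The YAP target median ran from -0.30 to -0.13, the further pathway genes from -0.13 to -0.049 and the immediate early genes from -0.049 to 0.024. All genes called ran from 4 to 16, the most without overexpression replicate 2. SOX5 ran from 5.77 to 6.003.

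With a replicate block the 10 genes kept their directions (ANKRD1 -0.57, adjusted p 0.862) and 4 genes were called over the whole table. Same-numbered libraries did not deviate together, with correlations of -0.029, -0.012 and -0.031 across 15055 genes. No pairing by number was thus seen, which does not show that these libraries were prepared separately. Intervals were widest for ANKRD1, CYR61 and TEAD1.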
